A study of Sus scrofa with 10 samples.

Results

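Oocyte and meiosis genes were followed through 9 tissues of Northeast min pigs, a breed of domestic pig, aged 60 days. The group was set as a list of 40 gene symbols, and 37 of them were found among the 25880 genes of the deposited table. Total RNA was sequenced in 1 library each from ovary, from 2 skeletal muscles (longissimus dorsi and psoas major), from subcutaneous adipose tissue, and from kidney, lung, spleen, liver and heart. A further library came from a pool whose label lists ovary and muscle beside the 5 internal organs, without adipose tissue. No treatment or genetic change is named, and the labels do not say whether the tissues came from the same animal or how many animals gave RNA. A single library per tissue leaves no spread between replicates, so levels are described with no error and no p-value. Values were read as FPKM, fragments per kilobase of transcript scaled to library size, a unit that the file header does not name.

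Female germ cells enter meiosis in the fetal ovary, pair and recombine their chromosomes, and then arrest in late prophase as oocytes enclosed in follicles. Growing oocytes build the zona pellucida, a glycoprotein coat, and store proteins and RNAs for the early embryo. They also signal to the granulosa cells around them through secreted ligands, and granulosa cells signal back through the ligand of the receptor KIT. In germ cells of both sexes a class of small RNAs, the piRNAs, silences transposons with the help of PIWI and Tudor domain proteins.

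The members were divided by role. The oocyte growth group held 17 symbols, of which 14 were matched: zona pellucida genes, maternal-effect genes, secreted ligands and oocyte transcription factors. The meiotic prophase group held 14 genes, all matched, for the synaptonemal complex, meiotic cohesin, HORMA domain proteins and recombination. A further 8 genes, all matched, act in germ cell RNA control, the piRNA pathway and the intercellular bridge, and KIT stood alone. NLRP5, TLE6 and SOHLH1 had no gene model that met the matching rule.

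The ovary label was checked against granulosa genes. Of the 12 matched, 10 were at 1 FPKM or more in ovary (50.9% of all genes in the table were). Ovary was the highest tissue for 8 of them, beside 28.7% of all genes that reached 1 FPKM in any tissue. A further mark, at least 5-fold above every other tissue in FPKM + 1, was met by 3 (AMH, INHA and FSHR), beside 1.46% of those genes. The granulosa genes were led by INHA (135 FPKM), GJA1 (77.9) and FST (50.7), though GJA1 was higher in heart (156). GATA4 was also higher in heart (22.0, against 21.2 in ovary), and NR5A2 in liver (2.26, against 0.249). AMH and FSHR, which mark follicle cells, stood at 23.9 and 5.71 in ovary and at most at 0.537 elsewhere. FOXL2 was listed at 0 in all 9 tissues, so its row tells nothing about ovary. Of 6 genes of theca cells, 3 reached 1 FPKM in ovary, 4 were highest there and none met the 5-fold mark. All 20 matched markers of the 7 other tissue types were highest in their own tissue. In a bulk library, fewer oocytes and less RNA per oocyte cannot be told apart.

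In ovary, 31 of the 37 members reached 1 FPKM, against 50.9% of all genes in the table. Outside ovary the picture turned around: 8 of 37 members reached 1 FPKM in at least 1 of the 8 other tissues, against 57.7% of all genes. The members together made up 0.261% of the summed FPKM of ovary and between 0.0128% (liver) and 0.0189% (kidney) of the other tissues. A gene was called enriched in ovary when its FPKM + 1 was at least 5-fold that of each other tissue, with at least 1 FPKM in ovary. By this rule 17 members were enriched, namely 9 of the oocyte growth group, 4 of the meiotic group and 4 of the RNA control group, while 1.46% of all genes that reached 1 FPKM in any tissue were called. Of the 17, 16 were under 1 FPKM in every other tissue, SYCP3 being the exception. In all, 23 members reached 1 FPKM in ovary and in no other tissue, against 4.53% of all such genes. With a pseudocount of 5 in place of 1 the count was 9, since that setting asks for higher levels in ovary.

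**Figure D1:**
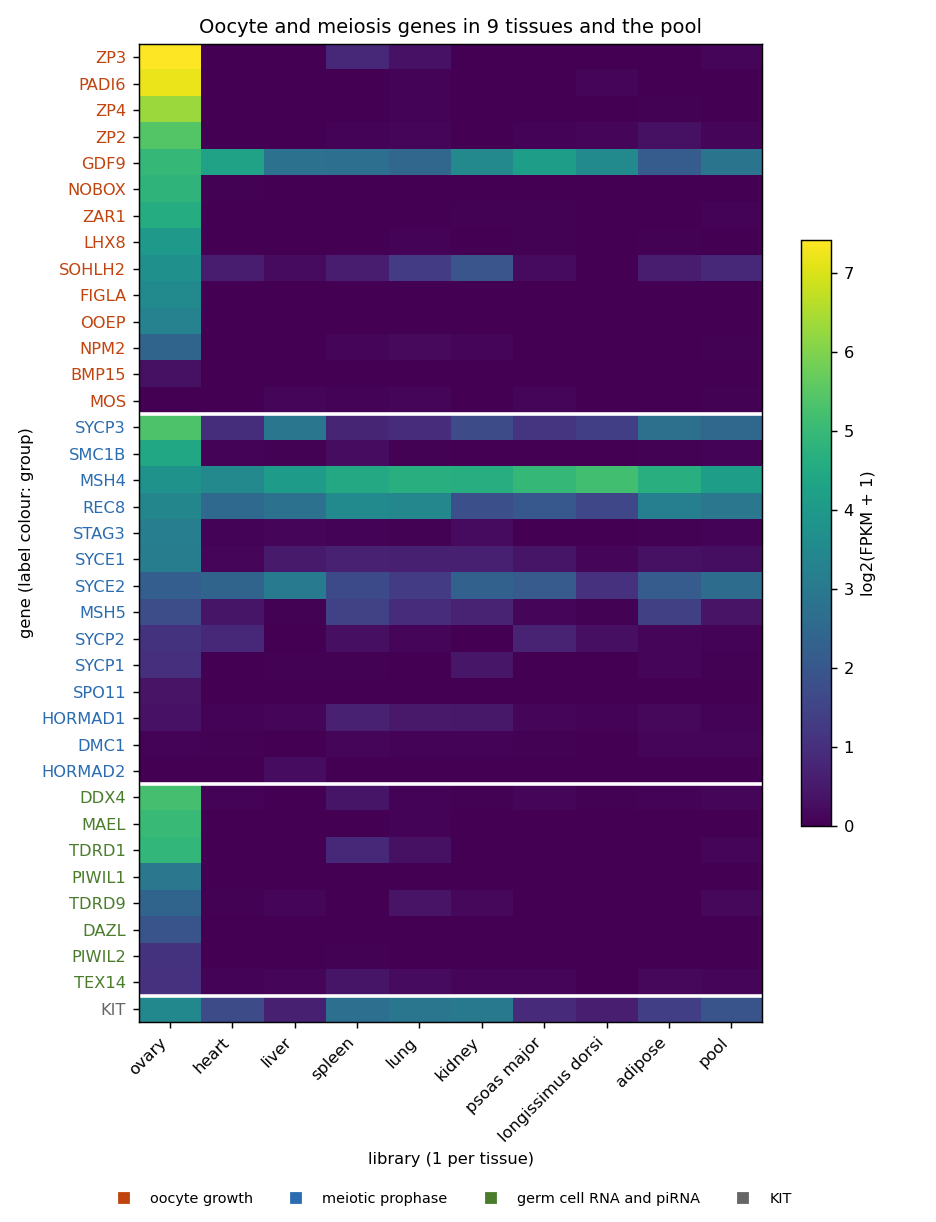
Heat map of log2(FPKM + 1) for the 37 matched genes (rows, ordered by group and by level in ovary) in the 9 tissue libraries and the pool (columns, 1 library each). Most rows are bright in the ovary column only, whereas GDF9, MSH4, REC8 and SYCE2 are at 1 FPKM or more in all 9 tissues.

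The zona pellucida genes were the most abundant members as a role. ZP3, a glycoprotein of the coat, stood at 171 FPKM in ovary, 202nd of all genes there. In the other 8 tissues ZP3 had a median of 0 and a highest value of 0.771, in spleen. ZP4, a coat protein that pigs keep and mice have lost, stood at 78.4 in ovary and at most at 0.0565, in lung. ZP2, another coat protein, stood at 42.8 in ovary and at most at 0.267, in adipose tissue. No other tissue came near ovary for any of the 3 genes, which lie on chromosome 3 (ZP3, 9934760 to 9944941, and ZP2, 24863730 to 24877522) and chromosome 14 (ZP4, 53577131 to 53584546) of the assembly Sscrofa11.1.

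The maternal-effect genes, whose products are laid down in the oocyte for the embryo, spanned a wide range. PADI6, a part of the cytoplasmic lattices of the oocyte (chromosome 6, 75969886 to 75987096), stood at 148 FPKM in ovary and was at 0 in 6 of the 8 other tissues, with 0.0651 in longissimus dorsi as the highest value. ZAR1, which acts in the storage of maternal mRNA, stood at 23.2 in ovary and at most at 0.0326 elsewhere. OOEP, a member of the subcortical maternal complex, stood at 8.75 in ovary and was listed at 0 in the other 8 tissues. NPM2, a histone chaperone that remodels sperm chromatin, stood at 4.25 in ovary and at most at 0.142, in lung. NPM2 missed the 5-fold rule at 4.59-fold although it was under 1 FPKM outside ovary, because the added 1 weighs more at low levels.

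MOS, the kinase that holds the mature egg in metaphase, was the exception among the maternal-effect genes. It was listed at 0 in ovary, where 3 times the smallest regular step of low values would have been 0.151 FPKM for a gene of its 1675 bases. Its values elsewhere were 0.104 in psoas major, 0.0759 in lung, 0.0743 in liver and 0.0503 in spleen, and it was listed at 0 in the remaining tissues. These correspond to 2, 4, 2 and 1 steps, so MOS was at a few reads or none in every library.

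For a pair of unmatched maternal-effect genes, parts of the locus were in the table. A gene model inside the RefSeq interval of NLRP5 (ENSSSCG00000028861, chromosome 6, 60403403 to 60412523), covering 21.1% of it, stood at 16.6 FPKM in ovary and was listed at 0 in all other tissues. The larger of 2 models inside the interval of TLE6 (ENSSSCG00000024588) stood at 11.2 in ovary, 2.07 in spleen and 1.03 in lung. Both are members of the subcortical maternal complex. They are given as partial models and enter none of the counts.

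The secreted ligands were read at very different levels. BMP15, an oocyte ligand encoded on the X chromosome (44613122 to 44619398), stood at 0.269 FPKM in ovary and was listed at 0 in the 8 other tissues. GDF9, its partner, was read at 29.9 in ovary, but also at 18.6 in heart, 16.5 in psoas major, 10.4 in longissimus dorsi and 10.3 in kidney, and at 3.47 to 5.81 in the other 4 tissues. The gene model of GDF9 is wider than the gene: RefSeq GDF9 covers 44.8% of its span, and the model runs 573 bases into UQCRQ, a respiratory chain subunit gene on the opposite strand. UQCRQ itself stood at 53.6 in ovary, 224 in longissimus dorsi, 173 in heart, 165 in kidney and 109 in psoas major. The 4 tissues with the highest UQCRQ were thus the 4 with the highest GDF9 reading outside ovary, whereas ovary, with less UQCRQ than those 4, had the highest GDF9 reading as deposited. Ovary stood 0.65 above heart on the log2 scale, but the difference from the highest other tissue was -0.37 after median-of-ratios scaling, so this order depends on the scaling. How much of the reading outside ovary is GDF9 transcript was not tested.

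All 4 matched oocyte transcription factors were detected in ovary. NOBOX, a homeobox factor of early folliculogenesis, stood at 27.4 FPKM in ovary and at most at 0.0277 elsewhere. LHX8, a LIM homeobox factor, stood at 15.3 and at most at 0.0565 elsewhere. FIGLA, the basic helix-loop-helix factor that drives zona genes, stood at 10.7 and was listed at 0 in all other tissues. SOHLH2, another helix-loop-helix factor, stood at 12.4 in ovary but also at 2.91 in kidney and 1.45 in lung, so it missed the 5-fold rule at 3.42-fold. A second, unnamed gene model on the same strand lies wholly within that of SOHLH2 and takes up 41.3% of its span.

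In the ovary library the oocyte growth genes lay above the meiotic prophase genes. The 14 matched oocyte growth genes had a median of 19.3 FPKM (range 0 to 171) and the 14 meiotic genes a median of 3.05 (range 0 to 39.7), while all genes that reached 1 FPKM in any tissue had a median of 6.36 in ovary. On the log2(FPKM + 1) scale the medians differed by 2.31. The groups overlapped widely: of the 196 pairs made of a gene from each group, the oocyte growth gene was higher in 76.0%. Without the 19 members whose gene model overlaps another gene, which leaves 18, the difference was 3.71, the highest of the alternatives run. With a pseudocount of 5 it was 1.58. These genes share a library and are not replicates, so the difference describes this ovary and carries no test.

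**Figure D2:**
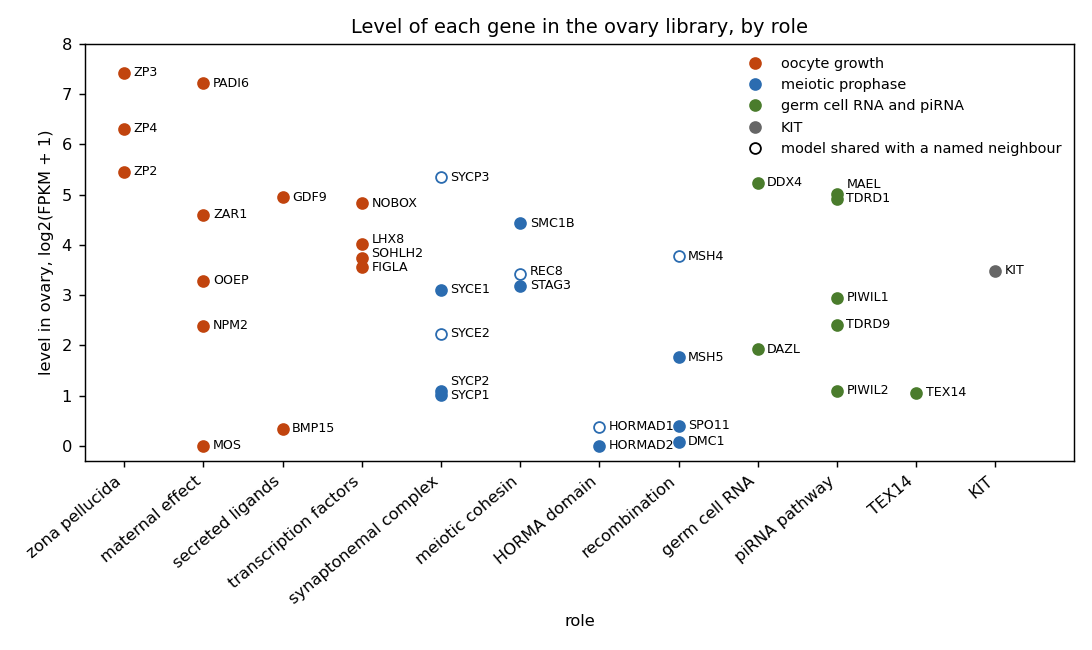
Level of each matched gene in the ovary library as log2(FPKM + 1), by role, with 1 point per gene. Open points are genes whose model shares at least 0.2 of its span with a named neighbour. Zona genes stand between 42.8 and 171 FPKM, and the HORMA domain genes, DMC1 and SPO11 are all below 1.

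SYCP3, which encodes a protein of the chromosome axis in the synaptonemal complex (chromosome 5, 82493992 to 82501068), stood at 39.7 FPKM in ovary, with 6.60 in liver, 5.73 in adipose tissue, 2.33 in kidney and 0.707 to 1.59 in the other 5. It passed the 5-fold rule at 5.36-fold. Of its model 51.3% lies over the gene model of CHPT1, a phospholipid synthesis gene on the opposite strand, whereas RefSeq CHPT1 covers 2.03% of it. CHPT1 was highest in liver (132) and adipose tissue (94.0) and stood at 26.9 in ovary. The tissues with the most CHPT1 were thus those with the most SYCP3 outside ovary, and what CHPT1 adds to the SYCP3 reading was not tested. SYCE1, of the central element of the complex, stood at 7.62 in ovary and at most at 0.608, in spleen. It passed at 5.36-fold too. SYCP1, the transverse filament protein that joins the axes, was at 1.01 in ovary and at most 0.360, in kidney. SYCP2, the axis partner of SYCP3, was at 1.14 in ovary, 0.773 in heart and 0.626 in psoas major. In this ovary SYCP3 thus stood far above the filament gene.

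The meiosis-specific cohesins SMC1B and STAG3 were called enriched. SMC1B, a subunit of the ring that holds sister chromatids together (chromosome 5, 3976157 to 4068932), stood at 20.5 FPKM in ovary and at most at 0.177, in spleen. STAG3 stood at 8.13 in ovary and at most at 0.163, in kidney. REC8, the meiotic kleisin that closes the ring, was read at 9.69 in ovary, 10.5 in spleen, 9.83 in lung and 8.22 in adipose tissue, and at 1.99 to 5.82 in the other 5 tissues. Its gene model takes in RefSeq REC8 and all of IRF9, an interferon signalling gene with a model of its own at 31.0 in ovary, 38.9 in spleen and 26.5 in lung. REC8 and IRF9 readings had the same 3 tissues at the top and longissimus dorsi at the bottom. What part of the REC8 reading comes from IRF9 was not tested.

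The genes of chromosome pairing checkpoints and of recombination were low or could not be read. HORMAD1, a sensor of unpaired axes, stood at 0.299 FPKM in ovary and was highest in spleen (0.597), lung (0.410) and kidney (0.402). Its model lies wholly within that of CTSS, a lysosomal protease gene on the same strand. CTSS stood at 298 in spleen and 215 in lung, but at 11.8 in kidney, and at 90.6 in adipose tissue, where HORMAD1 was at 0.106. HORMAD2 was listed at 0 in ovary and stood at 0.182 in liver. SPO11, the enzyme that makes the double-strand breaks of meiosis, stood at 0.320 in ovary and at most at 0.00654 elsewhere. DMC1, the recombinase that repairs them on the homologue, was at 0.0562 in ovary and at 0 to 0.0747 in the other tissues, so ovary did not stand out. MSH5, of the complex that stabilises crossover intermediates, was at 2.40 in ovary, 1.68 in spleen and 1.68 in adipose tissue.

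The row named MSH4, the partner of MSH5, cannot be read as that gene alone. Its model (chromosome 6, 137520340 to 137534233) holds 3.63% of RefSeq MSH4 and all of RABGGTB, a prenylation enzyme subunit gene. The reading was highest in longissimus dorsi (35.2 FPKM) and lowest in heart (10.2), with 12.7 in ovary. SYCE2, of the central element, was likewise highest outside ovary, at 7.24 in liver against 3.70 in ovary and 1.09 in longissimus dorsi. Of its model 25.2% lies over GCDH, a mitochondrial enzyme gene on the opposite strand that was highest in liver too (31.8).

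**Figure D3:**
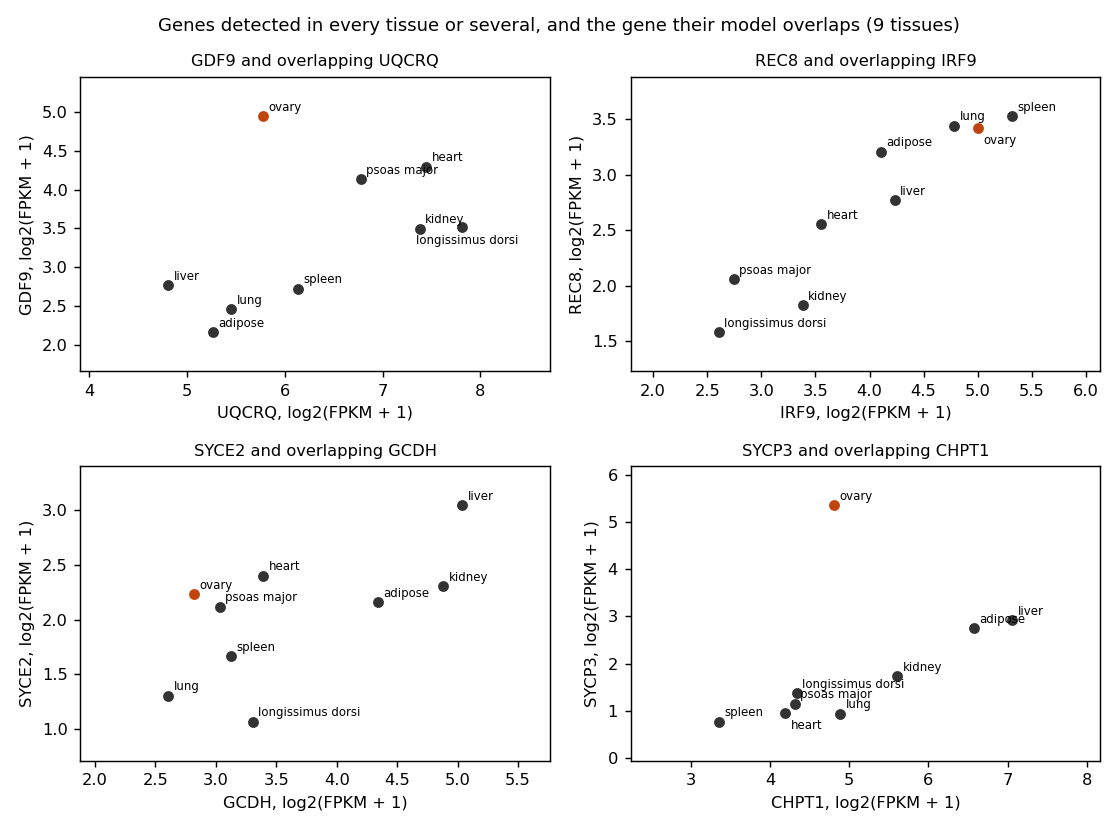
Reading of GDF9, REC8, SYCE2 and SYCP3 (vertical axes) against that of the named gene their model overlaps (horizontal axes), both as log2(FPKM + 1), with 1 point per tissue library and ovary in orange. In the SYCP3 and GDF9 panels ovary stands above the other 8 tissues, whereas in the REC8 panel it lies beside spleen and lung, and these 3 have the most IRF9.

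Germ cell RNA genes were read in ovary and almost nowhere else. All 8 matched members reached 1 FPKM in ovary and none did in another tissue, against 50.9% and 57.7% of all genes in the table. DDX4, the germ cell helicase also called VASA (chromosome 16, 34880568 to 34983694), stood at 36.8 in ovary and at most at 0.328, in spleen. DAZL, an RNA-binding protein that promotes translation in germ cells, stood at 2.78 in ovary and was listed at 0 in the other 8 tissues. TEX14, needed for the bridges between germ cells, stood at 1.08 in ovary and at most at 0.352, in spleen.

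The piRNA pathway was represented by its binding proteins and its scaffolds. MAEL, a component of piRNA granules, stood at 31.3 FPKM in ovary and was at 0 in all other tissues but lung (0.0588). TDRD1, a Tudor domain scaffold, stood at 29.3 in ovary, 0.783 in spleen and 0.262 in lung. TDRD9, a helicase of the pathway, stood at 4.30 in ovary and 0.325 in lung. Of the PIWI proteins, PIWIL1 stood at 6.73 and PIWIL2 at 1.14 in ovary, and neither exceeded 0.0285 elsewhere. MAEL, TDRD1 and PIWIL1 passed the 5-fold rule, whereas TDRD9 and DAZL (3.78-fold) missed it, both under 1 FPKM outside ovary.

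Further lists were set beside the shares over all genes in the table, 50.9% at 1 FPKM in ovary and 57.7% in at least 1 other tissue. The 5-fold rule called 1.46% of the genes that reached 1 FPKM in any tissue. Of 19 matched oocyte genes outside the group, 17 reached 1 FPKM in ovary, 12 were enriched and 4 reached 1 FPKM elsewhere. They were led by KPNA7, an importin of oocytes and early embryos (96.0 FPKM in ovary, at most 0.344 elsewhere), WEE2, the kinase that keeps oocytes arrested (43.1), and CPEB1, a regulator of mRNA polyadenylation (35.5, with 1.92 in adipose tissue). Beside CPEB1, the genes at 1 FPKM or more outside ovary were DNMT3A (17.1 in spleen), UHRF1 (12.6 in spleen) and CCNO (1.29 in lung). Of 21 further piRNA pathway genes, 16 reached 1 FPKM in ovary, 9 were enriched and 5 reached 1 FPKM elsewhere. FKBP6, a co-chaperone of the pathway, stood at 109 in ovary and at most at 0.0285 elsewhere, followed by GTSF1, a PIWI partner (46.2), and PNLDC1, which trims piRNA ends (27.5). The 5 outside ovary were TDRD7 (20.4 in lung), TDRD3 (11.7 in adipose tissue), TDRD12 (3.29 in adipose tissue), EXD1 (1.69 in kidney) and MYBL1 (1.33 in spleen).

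Of 30 further meiosis genes, 17 reached 1 FPKM in ovary, 14 reached it elsewhere and none was enriched. These counts lie near the shares over all genes, 50.9% in ovary and 57.7% elsewhere. The highest in ovary were REC114, of the break-forming machinery (29.2, with 13.5 in heart), HSF2BP, which helps load recombinases (28.3, with 13.2 in longissimus dorsi), and SUN1, which tethers telomeres to the nuclear envelope (27.3, with 29.0 in kidney). The initiators of meiosis STRA8 and MEIOSIN stood at 0.324 and 0.0782 in ovary. STRA8 was at 2.62 in kidney, and MEIOB, a single-strand DNA binding protein, at 76.5 in adipose tissue against 20.3 in ovary. The other 9 at 1 FPKM or more outside ovary were TRIP13, YTHDC2, MND1, CCNB1IP1, PSMC3IP, MLH3, HFM1, TERB2 and C14orf39, at 1.38 (C14orf39, adipose tissue) to 13.6 (TRIP13, spleen) where highest. Overlap with other genes was examined for the models of the members only. What other genes add to readings in the oocyte, piRNA and meiosis lists was therefore not tested. The oocyte and piRNA lists thus had 12 of 19 and 9 of 21 matched genes enriched, against 0 of 30 in the meiosis list. Of all genes that reached 1 FPKM in any tissue, 1.46% were enriched.

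Outside ovary, 8 members reached 1 FPKM: GDF9, SOHLH2, SYCP3, SYCE2, REC8, MSH4, MSH5 and KIT. The gene models of 6 of them overlap another gene, as do those of 19 of the 37 members, and MSH5 and KIT were the 2 that do not. GDF9, SYCE2, REC8 and MSH4 were at 1 FPKM or more in all 9 tissues. Among the 31 members that reached 1 FPKM in any of the 9 tissues, 28 were highest in ovary, where 28.7% of all such genes were highest, and SYCE2, REC8 and MSH4 were the 3 that were not. For GDF9, SYCP2 and MSH5 this order turned under median-of-ratios scaling, and for SYCP2 and MSH5 under quantile scaling too.

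**Figure D4:**
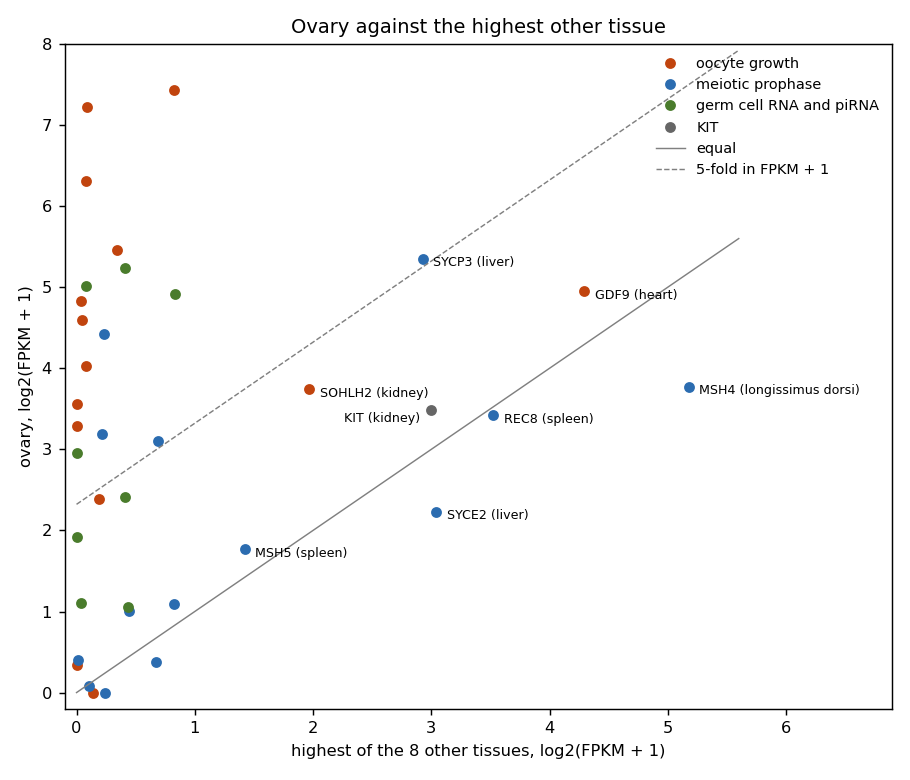
Level in ovary (vertical) against the highest level in the 8 other tissues (horizontal), both as log2(FPKM + 1), 1 point per matched gene. Genes at 1 FPKM or more outside ovary are named with the tissue of that value, and of these only SYCP3 lies above the 5-fold line.

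Traces below 1 FPKM were unevenly spread over the tissues. The number of members above 0 ran from 16 in longissimus dorsi to 29 in lung. Of the 25880 genes in the table, 15790 and 17492 were above 0 in these tissues. Lung also had the finest reading: the commonest low value of short genes corresponded to 0.0159 FPKM in a transcript of 2 kb, against 0.0436 in psoas major and 0.0423 in ovary. The count of members did not follow this value throughout. Heart (0.0248) had 19 members above 0, spleen (0.0421) had 24, and the value in longissimus dorsi was 0.0385. Among the traces in spleen were TDRD1 at 0.783, ZP3 at 0.771, DDX4 at 0.328 and TEX14 at 0.352. Of the 12 granulosa genes, AMH, INHA, FSHR and FOXL2 were at 0 in that library, while HSD17B1 (5.88), NR5A1 (5.77), GJA1 (4.51) and FST (1.60) reached 1 FPKM. In lung AMH stood at 0.537, INHA at 0.281 and FSHR at 0. Whether RNA of another tissue adds to these traces was not tested.

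KIT, the receptor tyrosine kinase that oocytes share with mast cells, melanocytes and blood progenitors, was the broadest member with a clean gene model. It stood at 10.2 FPKM in ovary, 6.98 in kidney, 6.56 in lung, 5.55 in spleen, 2.31 in heart, 1.59 in adipose tissue, 0.847 in psoas major, 0.557 in liver and 0.542 in longissimus dorsi. Ovary was 1.40-fold above kidney in FPKM + 1, and with 1 library each no neighbours in that order can be said to differ. Its ligand KITLG followed another order, with 21.5 in lung, 15.8 in kidney and 12.2 in ovary, down to 1.01 in liver. The mast cell list, of which KIT is 1 of 6 matched genes, summed to 35.1 in lung, 22.4 in ovary, 14.6 in adipose tissue, 14.2 in spleen and 13.9 in kidney, down to 2.50 in liver. KIT itself gave 10.2 of that sum in ovary and 6.98 in kidney, so the sum follows KIT in part by construction. MS4A2, FCER1A and GATA2 were highest in lung (8.20, 10.8 and 8.70) and stood at 3.22, 2.05 and 4.99 in ovary. HDC was at 1.92 in ovary and 1.87 in spleen. In that list CPA3 was at 0 in every tissue. Of 5 melanocyte genes, TYR, PMEL and MLANA were under 1 FPKM in all 9 tissues. MITF was above 1 FPKM in every tissue, with 9.56 in lung and 8.49 in ovary, down to 1.69 in liver. DCT stood at 1.563 in kidney and 1.504 in ovary, which also had the most KIT, and at most at 0.645 elsewhere. The 4 matched genes of blood progenitors summed to 33.1 in lung, 25.9 in adipose tissue and 21.7 in ovary, down to 0.862 in liver. In ovary CD34 alone made up 20.4 of that sum, and MYB, GATA1 and TAL1 were under 1 FPKM. In adipose tissue, where KIT stood at 1.59, CD34 made up 24.7 of the sum. MYB (0.0466) and GATA1 (0.0302) were near 0 there, and TAL1 was at 1.205. The blood progenitor sum thus mostly follows CD34 in ovary and in adipose tissue. What such cells add to the KIT level in each tissue was not tested.

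In the pool, which is labelled as containing ovary, the members enriched in ovary were nearly missing. Of the 17, 8 were listed at 0 and 1, SYCP3, reached 1 FPKM (4.62). The other 16 were at most 0.218. In the pool 1 FPKM was reached by 28.4% of the 229 genes enriched in ovary by the same rule, and by 49.7% of all genes in the table. ZP3 stood at 0.0924 in the pool against 171 in ovary, DDX4 at 0.104 against 36.8, and PADI6, ZP4, NOBOX and MAEL were listed at 0. The median level in the pool was 0.0540% of that in ovary. The pool was also set against all genes enriched in a tissue by the same rule (for each muscle, the other muscle was left out). It held a median of 47.9% of the level in liver, 19.4% in lung and 13.4% in spleen. The median was 7.53% in psoas major, 6.97% in kidney, 6.25% in longissimus dorsi and 5.14% in heart. For the 229 genes enriched in ovary it was 1.44%, and for the 52 of adipose tissue, which the label of the pool does not name, 1.68%. Of the 12 granulosa genes 7 reached 1 FPKM in the pool, beside 49.7% of all genes in the table. Of the 3 that were enriched in ovary, AMH and FSHR were at 0 in the pool and INHA stood at 0.600.

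**Figure D5:**
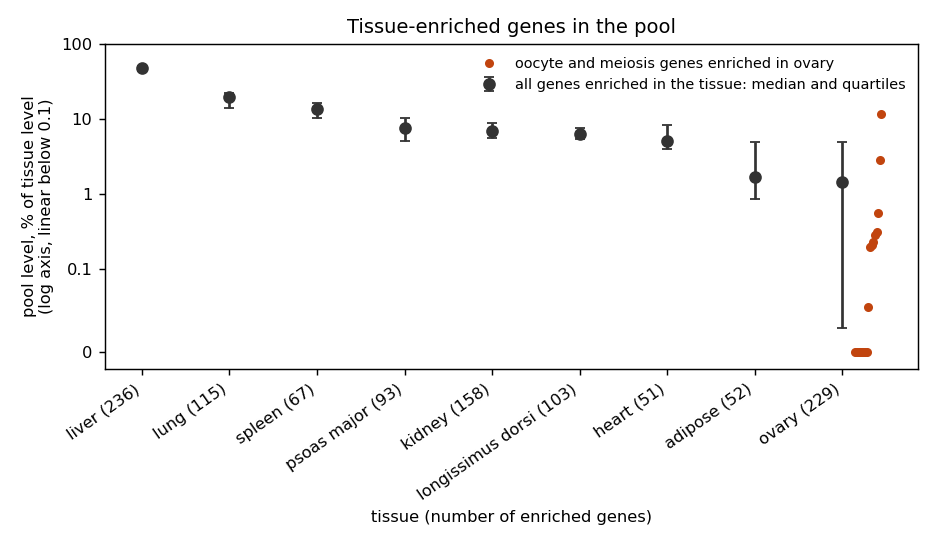
Level in the pool as a percentage of the level in the tissue, on a log axis that is linear below 0.1. Dark points and bars are medians and quartiles over all genes enriched in each tissue, and orange points are the 17 oocyte and meiosis genes enriched in ovary. The orange points lie at 0 for 8 genes and reach 11.6% for SYCP3.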

How the data were processed

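The values are the authors' deposited FPKM, 1 per gene and library; the header gives no unit, and FPKM was inferred from values that are not whole and from unequal library sums of 292495 to 369254. Per the submitters' processing notes, StringTie 1.2.2 and TopHat2 2.1.0 were used, with Sscrofa11.1 as the genome build; neither the annotation nor strandedness nor filters are stated. Symbols came from Ensembl identifiers (14857 genes; 34 members) or, failing that, from the RefSeq gene, on that build, with the best mutual overlap of at least 0.5 of the longer gene (1714; 3 members). A symbol with several models was read from the model of highest mean level. Levels were compared as log2(FPKM + 1), with detection at 1 FPKM. Depth was read from steps in genes of 400 to 1500 bases and lay between 11.5 (psoas major, kidney) and 31.5 (lung) in 1e6 fragments, uncertain by a factor of 2. Named genes were all members, the 3 highest genes in ovary of each pathway list and of the granulosa list, the pathway list genes at 1 FPKM or more outside ovary, and genes that overlap a member. Members and lists were chosen with earlier results of these data known, and genes named outside that rule (MEIOSIN, further granulosa, mast cell, melanocyte and blood progenitor genes, the NLRP genes and SYT5, and the germ cell and sperm genes listed at 0) were picked after their values were seen. The enrichment rule was tested on simulated data. Alternatives varied the pseudocount, detection level, fold, scaling and members. No sequence was used. Calculations used Python 3.11.15, numpy 2.4.6, pandas 2.3.3 and matplotlib 3.10.9.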

Additional observations from a re-analysis of the deposited data

How the results depend on the processing

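The oocyte growth genes stayed above the meiotic genes under every alternative run, by 1.56 to 3.71 on the log2 scale. The highest value came without the 19 members whose model overlaps any gene (18 left), where 9 members were enriched, 15 detected in ovary and 2 outside it. The lowest came with members at 1 FPKM or more in any tissue only. A pseudocount of 5 left 9 enriched members, and 0.1 gave 21. Median-of-ratios and quantile scaling, which lower the median gene of ovary by 0.57 and 0.51 on the log2 scale, each left 15 (SYCP3 and SYCE1 were lost). They called 0.873% and 0.989% of all genes that reached 1 in any tissue after the scaling. A fold of 10 left 12. Ovary against the highest other tissue turned to -0.37 (GDF9), -0.17 (SYCP2) and -0.030 (MSH5) under median-of-ratios scaling and to -0.61 (SYCP2) and -0.36 (MSH5) under quantile scaling, on the log2 scale. Members detected outside ovary were 13 at a level of 0.5 FPKM and 16 after scaling each library to the sum of a TPM table. That scaling raises all values, as the deposited sums (292495 to 369254) are smaller, so its cut of 1 is under 1 deposited FPKM. Both counts thus come with a lower cut, and the share of all genes detected outside ovary was not computed for either. Members detected outside ovary were 4 without the 5 genes whose model shares at least 0.2 of its span with a named neighbour. This alternative was added after the data were seen. Leaving out kidney added SOHLH2 to the enriched genes; leaving out liver, lung or spleen changed no call. The median pool level of the 17 enriched members was 0.0823% of ovary after median-of-ratios scaling. No paired analysis was possible because each group has 1 library. The promoter comparison was not run. At this depth, levels under about 0.1 FPKM rest on a few fragments.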

Other observations

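A run of NLRP genes on chromosome 6 was read in ovary and hardly anywhere else. NLRP proteins of the reproductive subset act in oocytes and early embryos. In the interval from 59093561 to 60418908, chosen after the values were seen, NLRP9 stood at 32.9 FPKM in ovary, NLRP7 at 5.44, NLRP11 at 4.73, NLRP13 at 4.22, NLRP8 at 1.60 and NLRP2 at 1.12. None of these 6 genes exceeded 0.178 in another tissue, and NLRP8, NLRP11 and NLRP13 were listed at 0 in all 8. The interval holds 60 gene models, of which 35 reached 1 FPKM in ovary, near the 50.9% of all genes, and 6 were enriched there, beside 1.46% of all genes that reached 1 FPKM in any tissue: NLRP7, NLRP9, NLRP11, NLRP13, the partial model of NLRP5 and SYT5, a synaptotagmin gene.

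Genes of early germ cells and of sperm were mostly low in the same ovary. Over all genes in the table, 50.9% reached 1 FPKM in ovary and 57.7% in at least 1 of the 8 other tissues. Of 10 matched genes of primordial germ cells and pluripotency, 3 reached 1 FPKM in ovary: SOX17 (5.10, with 4.44 in lung), DND1 (4.97) and POU5F1 (4.45, at most 0.0253 elsewhere). NANOG, PRDM14 and NANOS2 were listed at 0 in ovary. PRDM1 (5.35, in spleen) was at 1 FPKM or more outside ovary, as were SOX17 and DND1 (1.40, in spleen). Of 15 sperm genes 3 reached 1 FPKM, namely ODF2 (12.6, with 9.87 in lung), LDHC (6.21, at most 0.0976 elsewhere) and SPACA1 (1.33). Outside ovary SPATA18 (in lung) and TNP2 (4.51, in spleen) reached 1 FPKM beside ODF2. PRM1, TNP1, ACR, ODF1 and PGK2 were listed at 0 in all 9 tissues.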
